A study of Mus musculus with 2 samples.

Results

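The 38 genes described here encode the chaperones and folding enzymes of the endoplasmic reticulum (ER). They were chosen by name, with earlier results of these data known. The set holds the HSP70 chaperone BiP with its co-factors and J proteins, GRP94 with the canopy proteins, and the lectin chaperones with their glucosyltransferases. It also holds the protein disulfide isomerases with their thioredoxin-fold relatives, and the prolyl isomerases. All 38 were found among the 36980 named genes of the deposited table, and for each gene the listed transcript with the highest mean value stood for it. Of these genes, 35 reached 1 RPKM (reads per kilobase of transcript, scaled to depth) in at least 1 library and are called measured. Pdia5, Uggt2 and Fkbp14 did not.

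RNA sequencing compared mouse pro-B cells, the B cell precursors of bone marrow, whose Setdb1 alleles were labelled as deleted, with control pro-B cells. Setdb1 encodes a histone H3 lysine 9 methyltransferase. The deleted alleles are written Setdb1 Δ/Δ, and the control, Setdb1 C/C, is headed Wt in the deposited table. Cells of both genotypes carried a bcl2 transgene, were sorted from bone marrow and had grown to day 4 with interleukin 7 (5 ng/µl). Each genotype had 1 library of ribosome-depleted total RNA, read as 101 bp pairs, so the spread between cultures is unknown and no test was possible. The labels do not say how the gene was deleted, which exons are missing, what promoter drives bcl2, how many animals gave cells, or their age, sex and strain.

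Proteins bound for the cell surface or for secretion enter the ER unfolded. BiP, GRP94 and the lectin chaperones hold them while disulfide isomerases form and shuffle their cysteine bonds and prolyl isomerases turn their proline bonds. When unfolded protein accumulates, the sensors IRE1α, PERK and ATF6 start the unfolded protein response, which raises transcription of many of these genes through promoter elements bound by ATF6 and XBP1. In the B lineage BiP was first known as a protein that holds immunoglobulin heavy chains until light chains join them, and pro-B cells are at the stage where heavy chain genes are being assembled.

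The libraries held 193.3 M reads in Δ/Δ and 170.6 M reads in C/C (M, mega), as recovered from steps in the RPKM values. Ratios are given with an exact 95% interval for counting error, which covers nothing but the number of reads. Setdb1 measured 12.6 RPKM in Δ/Δ and 17.0 RPKM in C/C, a ratio of 0.743 over the whole transcript, which does not show how complete the deletion was. Of 16 pro-B markers 16 were measured, with summed levels of 5140 RPKM in Δ/Δ and 6055 RPKM in C/C. A limit of 1 RPKM is low for such markers, so this does not show what share of the cells were pro-B cells. Of these markers 1 was higher in Δ/Δ (Vpreb2, of the surrogate light chain) and 4 were lower (Rag1, Cd79a and Cd79b, and Pax5, named with its value known). By the same rule of size, given below, 6.28% of all measured genes were higher and 6.66% lower. The libraries also differed in sex-linked RNA, with Xist at 23.7 RPKM in Δ/Δ and 0.094 RPKM in C/C and Ddx3y at 0.009 RPKM in Δ/Δ and 10.2 RPKM in C/C, so genotype and sex cannot be told apart for any gene.

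The sequences below are shown because they hold the letters of the ER stress response element, through which ATF6 is known to raise chaperone genes, and because the members that hold it turned out to be among those with the larger differences. They come from RefSeq promoters (GRCm38.p6, 250 bases before to 50 bases after each start), which were available for 32 of the 38 members. Clgn, Manf, Sil1, Erp29, Hyou1 and Tmx3 had no entry. Each window is written 5′ to 3′ in the direction of its gene with 8 bases on either side of the match, and capitals mark CCAAT and CCACG, which lie 9 bases apart, or, where the element is on the opposite strand, CGTGG and ATTGG.
Hspa5, chr2:34772017-34772051, plus strand: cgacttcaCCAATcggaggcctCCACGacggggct
Calr, chr8:84847067-84847101, minus strand: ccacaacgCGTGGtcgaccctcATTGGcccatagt
Hsp90b1, chr10:86705630-86705664, minus strand: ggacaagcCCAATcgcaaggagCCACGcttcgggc
Hsp90b1, chr10:86705525-86705559, minus strand: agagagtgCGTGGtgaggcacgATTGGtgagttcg
Canx, chr11:50325792-50325826, minus strand: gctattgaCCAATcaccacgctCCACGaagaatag
Pdia6, chr12:17266483-17266517, plus strand: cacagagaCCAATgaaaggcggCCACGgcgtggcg
Dnajc3, chr14:118937819-118937853, plus strand: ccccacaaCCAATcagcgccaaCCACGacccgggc
Creld2, chr15:88819512-88819546, plus strand: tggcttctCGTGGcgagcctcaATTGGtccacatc

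Of the 3 members with the largest log2 ratios, Hspa5 and Hsp90b1 had a promoter entry, and both are printed whole, with the same letters in capitals. Hspa5 holds its element 65 bases before the start. Hsp90b1 holds 1 on each strand, at 212 and 107 bases before the start.
Hspa5, chr2:34771840-34772139, plus strand: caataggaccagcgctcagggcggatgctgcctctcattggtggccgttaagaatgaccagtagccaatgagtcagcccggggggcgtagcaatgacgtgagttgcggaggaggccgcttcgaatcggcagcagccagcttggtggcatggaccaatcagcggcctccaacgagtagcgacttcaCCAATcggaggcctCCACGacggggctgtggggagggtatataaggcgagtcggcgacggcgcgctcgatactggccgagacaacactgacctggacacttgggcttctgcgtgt
Hsp90b1, chr10:86705395-86705694, minus strand: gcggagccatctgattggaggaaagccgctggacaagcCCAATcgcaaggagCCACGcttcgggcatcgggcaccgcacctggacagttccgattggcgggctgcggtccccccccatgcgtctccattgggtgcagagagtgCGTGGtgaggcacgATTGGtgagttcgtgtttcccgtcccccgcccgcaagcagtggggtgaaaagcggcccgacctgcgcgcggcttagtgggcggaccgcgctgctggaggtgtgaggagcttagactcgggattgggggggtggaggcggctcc

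Of the 35 measured members, 16 were higher in Δ/Δ by at least 2-fold and 0 were lower. The rule of size is log2((Δ/Δ + 0.5) / (C/C + 0.5)) of 1 or more, or of -1 or less, with RPKM as deposited. By the same rule 788 of all 12556 measured genes (6.28%) were higher in Δ/Δ and 836 (6.66%) were lower. The median log2 ratio was 0.94 over the measured members and -0.09 over all measured genes. The members were chosen with earlier results of these data known, so these figures describe the set and do not test it. Hspa5, Hsp90b1 and Hyou1 were higher by 4-fold or more on this scale, as were 220 of all measured genes (1.75%). The summed level of the 38 members was 5259 RPKM in Δ/Δ and 2124 RPKM in C/C, a ratio of 2.48. In RNA of whole cultures, fewer cells of a type and less RNA per cell cannot be told apart. The counting interval of the ratio lay above 1 for 29 members, below 1 for 6 and across 1 for 3, so counting error is small beside most of these differences, although cultures can differ by more than that. Among the 6, Dnajc1, Sec63 and Txndc11 had measured transcripts on both sides of a log2 ratio of 0, so their direction depended on the transcript. The rule met its limit among the disulfide isomerases and lectin enzymes. P4hb (log2 ratio 1.01) and Tmx3 (1.05) lay just inside it, and Erp44 (0.97) and Uggt1 (0.94) lay just outside.

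**Figure D1:**
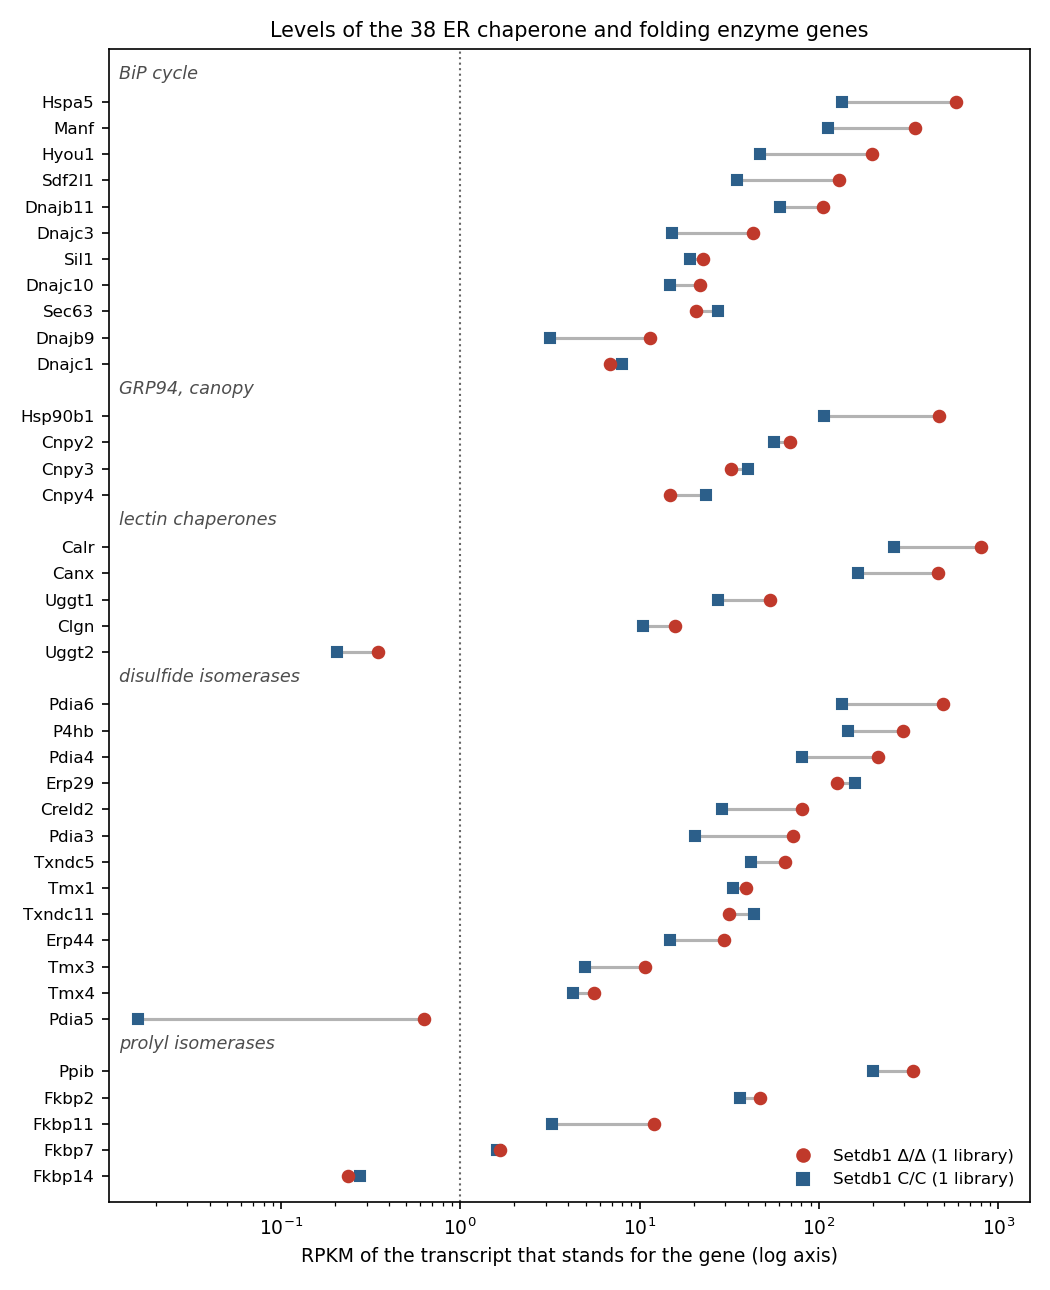
RPKM (log axis) of the transcript that stands for each of the 38 members, grouped by role; red circles are the Δ/Δ library, blue squares the C/C library, grey bars join the 2 libraries, and the dotted line marks 1 RPKM. The circle lies right of the square for Hspa5, Calr, Pdia6 and most other abundant members, and left of it for 6 of the 35 measured members, among them Erp29 and Cnpy4.

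The BiP cycle had 6 of 11 genes past the rule and the highest median log2 ratio of the role groups, 1.47. Hspa5, which encodes BiP, measured 582 RPKM in Δ/Δ and 134 RPKM in C/C and stood at rank 154 of all measured genes in Δ/Δ and at rank 619 in C/C. Its ratio was 4.34 (interval 4.24 to 4.45). Hyou1, the large HSP70-like exchange factor that frees ADP from BiP, measured 198 RPKM in Δ/Δ and 47.1 RPKM in C/C, a ratio of 4.20 (4.03 to 4.38). The level of Hspa5 relative to Hyou1 was 2.95 in Δ/Δ and 2.85 in C/C, and 2.54 in Δ/Δ and 2.10 in C/C with protein-coding transcripts. Sil1, the other exchange factor, measured 22.5 RPKM in Δ/Δ and 19.2 RPKM in C/C, with a ratio of 1.17 (1.12 to 1.23) that did not pass. Hyou1 thus stood at 8.77 times the level of Sil1 in Δ/Δ and at 2.45 times its level in C/C.

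J proteins bring clients to BiP and start its ATP hydrolysis, and they differed from one another. Dnajb9, whose product ERdj4 serves ER-associated degradation, measured 11.4 RPKM in Δ/Δ and 3.17 RPKM in C/C, a ratio of 3.60 (3.31 to 3.92). Dnajc3, the J protein p58IPK, measured 42.9 RPKM in Δ/Δ and 15.2 RPKM in C/C, a ratio of 2.83 (2.75 to 2.91). These were the J proteins past the rule. Dnajb11, whose product ERdj3 binds unfolded chains, was the most abundant J protein in both libraries, with 105 RPKM in Δ/Δ and 60.7 RPKM in C/C, and its log2 ratio of 0.78 did not pass. Dnajc10, the J protein with disulfide reductase activity, measured 21.7 RPKM in Δ/Δ and 14.8 RPKM in C/C, a log2 ratio of 0.53. Neither J protein that works at the translocon passed. Dnajc1, which also binds ribosomes, measured 6.88 RPKM in Δ/Δ and 7.97 RPKM in C/C, and Sec63 measured 20.6 RPKM in Δ/Δ and 27.4 RPKM in C/C. For both genes the direction depended on the transcript. Of 11 measured transcripts of Dnajc1, 10 had log2 ratios above 0, and the 1 that stood for the gene did not. The protein-coding transcript of Sec63 measured 8.71 RPKM in Δ/Δ and 7.30 RPKM in C/C.

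The remaining BiP partners were past the rule. Sdf2l1, which forms a complex with ERdj3 and keeps clients from aggregating, measured 129 RPKM in Δ/Δ and 35.0 RPKM in C/C, a ratio of 3.70 (3.56 to 3.84). Sdf2l1 stood at 1.23 times the level of its partner Dnajb11 in Δ/Δ and at 0.576 times in C/C, so the order of the 2 genes differed between the libraries. Manf, which slows nucleotide release from BiP and can be secreted, measured 344 RPKM in Δ/Δ and 112 RPKM in C/C, a ratio of 3.06 (2.96 to 3.16). In summed level the BiP cycle reached 1484 RPKM in Δ/Δ and 477 RPKM in C/C.

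Hsp90b1, which encodes GRP94, the HSP90 of the ER that folds Toll-like receptors and integrins, stood apart from the canopy proteins beside which it was listed. Hsp90b1 measured 466 RPKM in Δ/Δ and 107 RPKM in C/C, a ratio of 4.36 (4.26 to 4.45). The level of Hspa5 relative to Hsp90b1 was 1.25 in Δ/Δ and 1.26 in C/C for the transcripts that stood for the genes. With protein-coding transcripts it was 1.08 in Δ/Δ and 0.926 in C/C, so neither their order nor an equal ratio is read from these values. None of the 3 canopy genes passed. Cnpy3, a co-factor of GRP94 for Toll-like receptors, measured 32.3 RPKM in Δ/Δ and 40.1 RPKM in C/C, a ratio of 0.804 (0.776 to 0.833). Cnpy4, its close relative, measured 14.7 RPKM in Δ/Δ and 23.4 RPKM in C/C, and its log2 ratio of -0.65 was the lowest of all measured members. Cnpy2 measured 69.4 RPKM in Δ/Δ and 56.3 RPKM in C/C. Hsp90b1 stood at 14.4 times the level of Cnpy3 in Δ/Δ and at 2.66 times in C/C.

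Lectin chaperones bind the trimmed sugar of new glycoproteins, and UGGT enzymes put a glucose back on chains that are still misfolded. Calr, the soluble lectin calreticulin, was the most abundant member in both libraries, with 806 RPKM in Δ/Δ and 263 RPKM in C/C, a ratio of 3.06 (3.02 to 3.11). Canx, its membrane-bound homologue calnexin, measured 464 RPKM in Δ/Δ and 165 RPKM in C/C, a ratio of 2.82 (2.75 to 2.88). Both were past the rule, and Calr stood at 1.74 times the level of Canx in Δ/Δ and at 1.59 times in C/C, or at 2.32 times in Δ/Δ and 1.83 times in C/C with protein-coding transcripts. Clgn, the calnexin homologue best known from testis, measured 15.7 RPKM in Δ/Δ and 10.4 RPKM in C/C, a log2 ratio of 0.56. Uggt1 measured 53.3 RPKM in Δ/Δ and 27.5 RPKM in C/C, a ratio of 1.94 (1.88 to 1.99), just short of the rule. Its paralogue Uggt2 lay under the filter with 0.346 RPKM in Δ/Δ and 0.206 RPKM in C/C, from 40 and 21 reads, and its interval of 0.733 to 3.71 holds 1.

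Disulfide isomerases and their relatives formed the largest role group, and 6 of its 12 measured genes were past the rule, with a median log2 ratio of 0.99. For the transcripts that stood for the genes, Pdia6 had the highest ratio of them, 3.62 (3.52 to 3.73), with 491 RPKM in Δ/Δ and 135 RPKM in C/C. Pdia3, whose product ERp57 works with calreticulin and calnexin on glycoproteins, measured 71.9 RPKM in Δ/Δ and 20.5 RPKM in C/C, a ratio of 3.51 (3.30 to 3.74). With protein-coding transcripts the ratio was 3.90 for Pdia3 and 3.78 for Pdia6, so their order depended on the transcript. Pdia4, which encodes ERp72, measured 213 RPKM in Δ/Δ and 80.9 RPKM in C/C, a ratio of 2.63 (2.59 to 2.68). The classic isomerase gene P4hb, whose protein is also a subunit of collagen prolyl hydroxylase, differed less. It measured 294 RPKM in Δ/Δ and 146 RPKM in C/C, a ratio of 2.02 (1.97 to 2.07), and did not pass when its transcripts were summed. Pdia6 therefore stood at 1.67 times the level of P4hb in Δ/Δ and at 0.930 times in C/C, and at 1.33 times in Δ/Δ and 0.709 times in C/C with protein-coding transcripts, so their order differed between the libraries either way. Creld2, which encodes a cysteine-rich ER protein, measured 80.9 RPKM in Δ/Δ and 28.9 RPKM in C/C, a ratio of 2.80 (2.69 to 2.91).

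Membrane-bound isomerases of the TMX family split. Tmx3 measured 10.8 RPKM in Δ/Δ and 4.97 RPKM in C/C, a ratio of 2.17 (2.06 to 2.29), and passed the rule at the added 0.5 RPKM but not at an added 1 RPKM. Tmx1 (39.3 RPKM in Δ/Δ, 33.2 RPKM in C/C) and Tmx4 (5.54 RPKM in Δ/Δ, 4.27 RPKM in C/C) did not pass. Erp44, which carries escaped or unassembled proteins back from the early Golgi, measured 29.6 RPKM in Δ/Δ and 14.8 RPKM in C/C. Its ratio of 1.998 (1.81 to 2.21) left it just short of the rule on the scale with the added 0.5 RPKM. Its protein-coding transcript, with 23.1 RPKM in Δ/Δ and 9.32 RPKM in C/C, passed at a log2 ratio of 1.26.

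Txndc5, a many-domain isomerase, measured 64.4 RPKM in Δ/Δ and 42.0 RPKM in C/C, a log2 ratio of 0.61. Ratios under 1 were measured for Erp29 and Txndc11, of which neither passed the rule. Erp29, which has the thioredoxin fold but not the paired cysteines of an isomerase, was an abundant member with 126 RPKM in Δ/Δ and 159 RPKM in C/C, a ratio of 0.792 (0.770 to 0.815). Its protein-coding transcript stood at 0.388 times the level of that of P4hb in Δ/Δ and at 0.991 times in C/C. Txndc11, a membrane protein of the thioredoxin family, measured 31.7 RPKM in Δ/Δ and 43.4 RPKM in C/C, a ratio of 0.730 (0.685 to 0.779). Pdia5 had few reads in C/C. It was listed at 0.627 RPKM in Δ/Δ and at 0.016 RPKM in C/C, from 219 and 5 reads. The plain ratio of 39.2 has a counting interval of 13.1 to 406, and the gene stayed under the filter of 1 RPKM.

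Prolyl isomerases had a median log2 ratio of 0.56, with 1 of 4 measured genes past the rule. That gene was Fkbp11, a membrane-anchored FK506-binding protein known from secretory tissues, with 12.1 RPKM in Δ/Δ and 3.26 RPKM in C/C, a ratio of 3.72 (3.18 to 4.35). Ppib, the cyclophilin of the ER and the most abundant prolyl isomerase here, measured 334 RPKM in Δ/Δ and 200 RPKM in C/C, a log2 ratio of 0.74 that did not pass. Fkbp2 measured 46.9 RPKM in Δ/Δ and 36.1 RPKM in C/C. Fkbp7, which binds BiP in mouse, measured 1.66 RPKM in Δ/Δ and 1.60 RPKM in C/C, and its interval of 0.778 to 1.38 holds 1. Fkbp14 lay under the filter at 0.236 RPKM in Δ/Δ and 0.277 RPKM in C/C, from 28 and 29 reads.

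The members past the rule were not evenly spread over levels. Of the 9 members at 100 RPKM or more in C/C, 7 were higher in Δ/Δ, with a median log2 ratio of 1.61, while 21 of all 842 measured genes at that level were (2.49%). Between 20 and 100 RPKM in C/C, 5 of 15 members were higher, against 79 of 3384 genes (2.33%). Under 20 RPKM in C/C, 4 of 11 were higher, against 688 of 8330 genes (8.26%). The abundant members that did not pass were Ppib and Erp29.

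**Figure D2:**
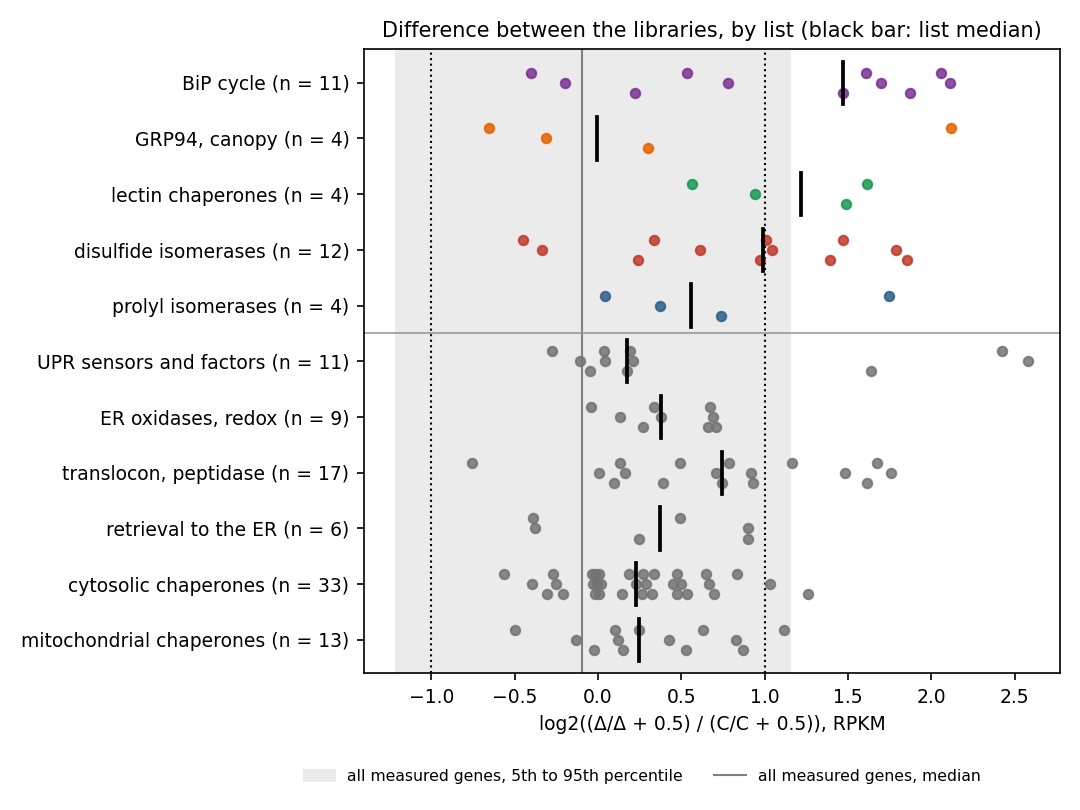
Each point is the log2((Δ/Δ + 0.5) / (C/C + 0.5)) of 1 measured gene, by list; coloured rows are the 5 role groups of the members, grey rows other lists, black bars list medians, the grey band the 5th to 95th percentile of all measured genes and dotted lines the rule of size. The BiP cycle has the highest median, 1.47, and the cytosolic and mitochondrial chaperones have medians of 0.23 and 0.25.

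Chaperones of other compartments are set beside the members to show where the ER genes differed from them, as counts without a test. Of 33 measured chaperones of the cytosol 2 were higher in Δ/Δ, 0 were lower and the median log2 ratio was 0.23. The 2 were Ptges3, the HSP90 co-chaperone p23 (113 RPKM in Δ/Δ, 47.0 RPKM in C/C), and Ppid, the cyclophilin that joins HSP90 complexes (46.9 RPKM in Δ/Δ, 22.6 RPKM in C/C). Of 13 mitochondrial chaperones and proteases 1 was higher, the unfoldase Clpx (26.2 RPKM in Δ/Δ, 11.8 RPKM in C/C), 0 were lower and the median was 0.25. Members were also set beside relatives of other compartments, chosen after the values were seen. Among HSP70 genes the ratio was 4.34 for Hspa5, 1.22 for Hspa8 of the cytosol and 1.78 for Hspa9 of mitochondria. Among HSP90 genes it was 4.36 for Hsp90b1, 1.21 for Hsp90ab1 and 1.17 for Hsp90aa1 of the cytosol and 1.07 for Trap1 of mitochondria. The cyclophilins had no such order, with 1.67 for Ppib of the ER, 2.07 for Ppid and 1.14 for Ppia of the cytosol and 1.19 for Ppif of mitochondria. Hspa8, Hsp90ab1 and Ppia have many processed pseudogenes, which can share their reads, so their values are uncertain.

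Other genes of the ER folding pathway were counted from lists by role. Of 17 measured genes of the translocon, its receptor and the signal peptidase, which bring new chains into the ER and trim them, 5 were higher and 0 lower, with a median log2 ratio of 0.74. Sec61g (399 RPKM in Δ/Δ, 117 RPKM in C/C) and Sec61b (449 RPKM in Δ/Δ, 160.3 RPKM in C/C), the small subunits of the channel, were among the 5. So were Spcs3 of the signal peptidase (35.5 RPKM in Δ/Δ, 10.8 RPKM in C/C) and Ssr3 of the translocon-associated complex (73.2 RPKM in Δ/Δ, 23.6 RPKM in C/C), and Ssr1 of the same complex, named with its value known (20.8 RPKM in Δ/Δ, 9.02 RPKM in C/C). None of 9 measured oxidases and redox partners, which supply the isomerases with oxidising power, passed in either direction. Their median was 0.38, and Ero1lb, the ERO1 oxidase that recharges PDI, measured 21.2 RPKM in Δ/Δ and 13.2 RPKM in C/C. None of 6 measured genes of retrieval to the ER passed either, with a median of 0.37. The receptors for the tail signal that many ER chaperones carry differed in sign, with Kdelr2 at 39.8 RPKM in Δ/Δ and 28.1 RPKM in C/C and Kdelr1 at 41.8 RPKM in Δ/Δ and 54.8 RPKM in C/C. The cargo receptor genes Lman1 (58.6 RPKM in Δ/Δ, 31.1 RPKM in C/C) and Surf4 (128 RPKM in Δ/Δ, 68.0 RPKM in C/C) had log2 ratios of 0.90 each.

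Of 11 measured sensors and transcription factors of the unfolded protein response 3 were higher, 0 were lower, and the median was 0.18. Ern1, which encodes the sensor IRE1α, measured 13.1 RPKM in Δ/Δ and 1.77 RPKM in C/C, a log2 ratio of 2.58. Creb3l2, a factor that like ATF6 is released from the membrane by cleavage, measured 9.89 RPKM in Δ/Δ and 1.44 RPKM in C/C, a log2 ratio of 2.42. Xbp1, whose RNA is spliced by IRE1α, was the third, at a log2 ratio of 1.64. Spliced and unspliced Xbp1 were not told apart here. Ddit3, which encodes the stress factor CHOP, measured 29.0 RPKM in Δ/Δ and 35.3 RPKM in C/C and did not pass. The other sensor genes, named with their values known, did not pass either. Atf6 measured 10.4 RPKM in Δ/Δ and 11.2 RPKM in C/C, and Eif2ak3, which encodes PERK, 36.9 RPKM in Δ/Δ and 36.0 RPKM in C/C. The transcription factor gene Atf4, also named with its value known, measured 204 RPKM in Δ/Δ and 178 RPKM in C/C and did not pass.

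Marker lists of other cell types differed between the libraries as well. By the same rule 6.28% of all measured genes were higher and 6.66% lower. A gene under 1 RPKM in C/C was measured only if Δ/Δ held more, so the filter favoured such genes among those counted as higher. This held for Klk1, Siglech, Ccr9 and Clec10a (dendritic) and for Ppbp and Pf4 (platelet), here named with their values known. The myeloid list had 12 genes higher and 0 lower of 16 measured. Of the 12, S100a8, Fcer1g, Ly6c1, Ngp, Ltf, Adgre1, Csf3r and Camp, named with their values known, were under 1 RPKM in C/C. The 25 listed myeloid genes summed to 297 RPKM in Δ/Δ and 52.6 RPKM in C/C. Mpo and Elane were at 0 in C/C, and 9 of the 25 were under the filter. The erythroid and platelet markers summed to 170.1 RPKM in Δ/Δ and 102 RPKM in C/C, with 6 of 8 measured genes higher and Car1 at 0 in both. Without Car2, the most abundant of them, the sum was 78.3 RPKM in Δ/Δ and 9.41 RPKM in C/C. The dendritic list had 5 higher (Klk1, Siglech and Ccr9, with Clec10a and Bst2 named after the fact) and 1 lower (Ly6d) of 8 measured. It summed to 471 RPKM in Δ/Δ and 1038 RPKM in C/C, of which Ly6d held 58.6 RPKM in Δ/Δ and 643 RPKM in C/C. Ly6d thus set the order of these sums, and they are not read as an amount of dendritic cells. Without Ly6d the sum was 412 RPKM in Δ/Δ and 395 RPKM in C/C, with Batf3 and Clec9a at 0 in C/C. Most of it was Irf8, Bst2 and Tcf4, named with their values known. Irf8 measured 229 RPKM in Δ/Δ and 290 RPKM in C/C. Bst2 measured 95.7 RPKM in Δ/Δ and 43.8 RPKM in C/C, and Tcf4 measured 74.0 RPKM in Δ/Δ and 59.0 RPKM in C/C. This sum therefore does not show how the scarcer genes of the list differed. Of 10 measured plasma cell markers, a cell type with an extended ER, 4 were higher and 0 lower (Derl3, Xbp1, Ly6c2 and Mzb1), and the list summed to 1137 RPKM in Δ/Δ and 859 RPKM in C/C. None of its genes was at 0, and 4 were under the filter. Of the 10 measured, 6 had log2 ratios above 0 and 4 below 0. Other genes of this list are given as values, chosen after these were seen. Sdc1 measured 8.02 RPKM in Δ/Δ and 12.3 RPKM in C/C. Under the filter, Prdm1 measured 0.224 RPKM in Δ/Δ and 0.558 RPKM in C/C. Tnfrsf17 (0.013 RPKM in Δ/Δ, 0.029 RPKM in C/C) and Jchain (0.705 RPKM in Δ/Δ, 0.661 RPKM in C/C) were under it too. The part of these marker lists in the members' values was not tested.

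Transcripts of 1 gene overlap and share reads, so their values are not independent, but they show whether the choice of transcript set a member's direction. The 38 members had 158 listed transcripts, of which 134 were measured, 56 were higher in Δ/Δ and 0 were lower. No share over all measured transcripts is given beside these counts, so they serve only to compare transcripts within a member. Among 25 members with at least 2 measured transcripts, every transcript was higher for 7 (Hspa5, Hsp90b1, Hyou1, Calr, Manf, Pdia3 and Pdia6), some were for 4 (Canx, P4hb, Erp44 and Uggt1) and none were for 14. The 6 transcripts of Hspa5 had log2 ratios of 2.0 to 2.34, and the full coding one measured 503 RPKM in Δ/Δ and 99.0 RPKM in C/C, a ratio of 5.08. The 4 transcripts of Pdia3 had the widest span of these 7 genes, with log2 ratios of 1.31 to 2.25. The transcript that stood for the gene was not annotated as protein-coding for 14 of the 38 members. For Hspa5 it was a retained-intron transcript of 720 bases inside the gene (ENSMUST00000145466, GRCm38 chr2:34772581-34774192, plus strand). Measured transcripts lay on both sides of 0 for Dnajc1, Sec63, Txndc11 and Tmx4, and no direction is read for these genes.

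**Figure D3:**
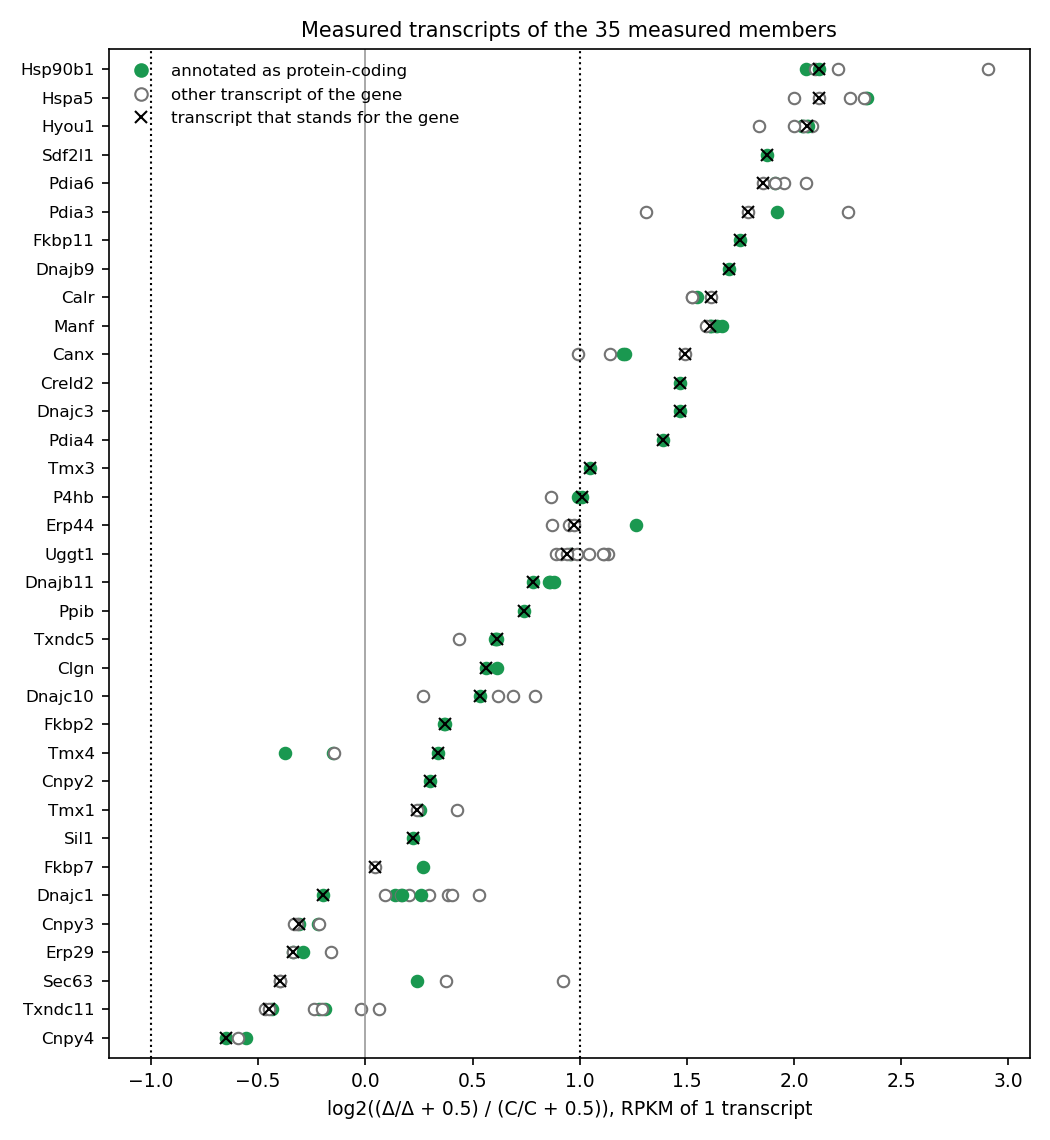
Each mark is the log2((Δ/Δ + 0.5) / (C/C + 0.5)) of 1 measured transcript of a member; filled green circles are protein-coding transcripts, open circles other transcripts, and the cross is the transcript that stands for the gene. Dotted lines mark the rule of size; all 6 transcripts of Hspa5 lie between 2.0 and 2.34, while those of Sec63 and Tmx4 lie on both sides of 0.

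Promoters were then compared with the differences. The element printed above was sought on both strands as CCAAT followed after any 9 bases by CCACG. It was present in 39 of 32851 RefSeq promoters (0.119%), that is in 37 of 27025 genes (0.137%), and in 7 of the 32 members with a promoter (21.9%). The element was defined from promoters of human ER chaperone genes, the counterparts of Hspa5, Hsp90b1 and Calr among them, so its share among the members is a description. All 7 members that hold it (Hspa5, Hsp90b1, Calr, Canx, Pdia6, Dnajc3 and Creld2) were higher in Δ/Δ, with log2 ratios of 1.47 to 2.12. Of the other 22 measured members with a promoter 6 were higher, with a median of 0.57 and a range of -0.65 to 1.87. Among all 8865 measured genes with a promoter, 481 were higher (5.43%). In the 7 promoters the element began between 65 and 212 bases before the start.

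Outside the members, 8 measured genes held the element, and of these 2 were higher and 0 lower, with a median log2 ratio of 0.20. The 2 were Derl3, whose product derlin-3 serves ER-associated degradation (21.8 RPKM in Δ/Δ, 3.41 RPKM in C/C), and Xlr3a (2.36 RPKM in Δ/Δ, 0.092 RPKM in C/C). Creld2 and Alg12, a mannosyltransferase gene, are read from opposite strands with starts 328 bases apart, and the same element, at chr15:88819520-88819538, falls in both promoter windows. Creld2 had a ratio of 2.80, whereas Alg12 measured 7.90 RPKM in Δ/Δ and 7.46 RPKM in C/C, a ratio of 1.06. A match to these letters thus went with a higher level in all 7 members and in 2 of the 8 other genes. Of all measured genes with a promoter, 5.43% were higher. Of the 2 other genes, Xlr3a was under 1 RPKM in C/C and was measured only through Δ/Δ. Its reads can also be shared with its close copy Xlr3b.

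The second form of the element, ATTGG followed after 1 base by CCACG, was found in 12 promoters (0.0365%) and in 1 member, Dnajb11, which did not pass the rule. Capitals mark these letters.
Dnajb11, chr16:22857844-22857870, plus strand: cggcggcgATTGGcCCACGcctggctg

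The core letters of the unfolded protein response element, TGACGTG, known as a binding sequence of XBP1 and of ATF6, were found in 661 promoters (2.01%). That is 601 of 27025 genes (2.22%), and the core was in 4 of the 32 members with a promoter (12.5%). Of these 4 members Hspa5 and Fkbp11 were higher in Δ/Δ, and Txndc5 and Txndc11 did not pass. Of the 25 measured members with a promoter but without the core, 11 were higher. The windows are shown so that the members with a difference can be compared with those without, with the core in capitals, written CACGTCA where it lies on the opposite strand. For Fkbp11 and Txndc5 the RefSeq window lies inside the gene. Their matches are downstream of the start of the transcript that stood for the gene (chr15:98728198 for Fkbp11, chr13:38528490 for Txndc5).
Hspa5, chr2:34771925-34771947, plus strand: cgtagcaaTGACGTGagttgcgg
Txndc5, chr13:38528038-38528060, minus strand: ctcgccgcTGACGTGgcgctagc
Fkbp11, chr15:98727613-98727635, minus strand: ggctgaaaCACGTCAgctttggc
Txndc11, chr16:11134620-11134642, minus strand: agtgtggcTGACGTGgagagtcc
Txndc11, chr16:11134569-11134591, minus strand: tccgggagTGACGTGcggggccg

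Matches of different motifs did not overlap in any member's promoter, and 11 members held at least 1 of the motifs. Where no match was found, only these letters were absent from these windows. Among members without any of the 3 motifs, Sdf2l1, Pdia3 and Dnajb9 had ratios of 3.51 to 3.70, which lie within the range of the members that hold the ER stress response element.

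**Figure D4:**
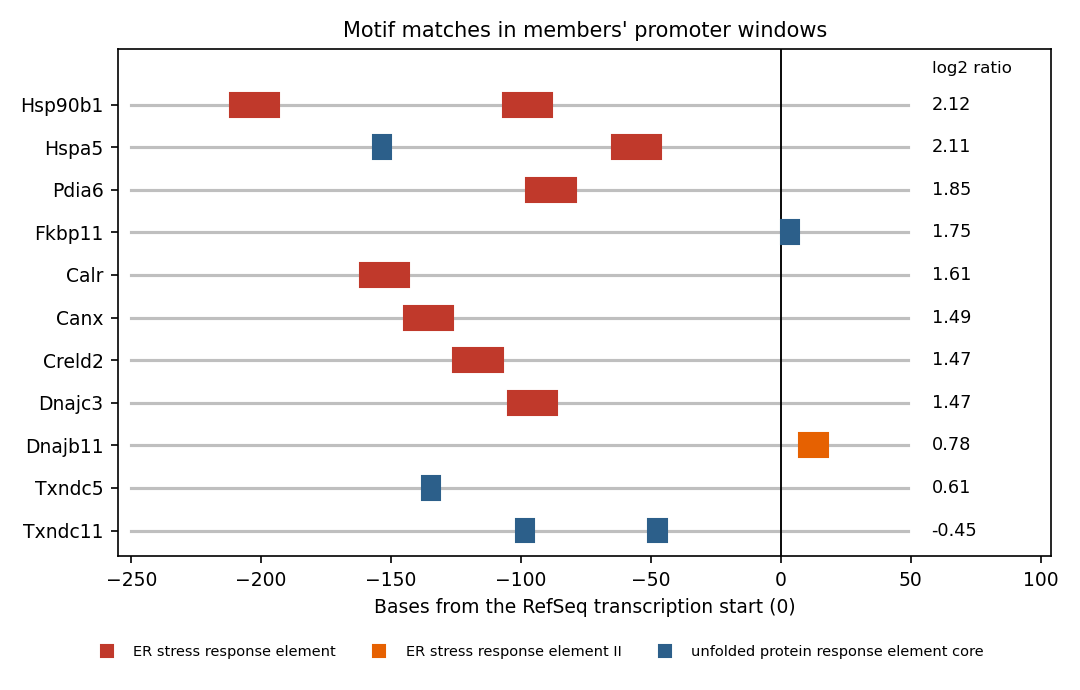
Grey lines are the RefSeq promoter windows of the 11 members with a match, in bases from the transcription start (0), and boxes are matches to the ER stress response element (red), its second form (orange) and the core of the unfolded protein response element (blue). The log2 ratio of each member stands at the right, and the 7 members with a red box have values of 1.47 to 2.12.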

How the data were processed

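The deposited table gives RPKM for 93615 Ensembl transcripts, 1 column per library, rounded by the authors to 3 decimals. Its columns Del and Wt were read as Δ/Δ and C/C, the match the labels allow. Per the submitters' processing notes, which give no roles, the tools were TopHat2 2.0.9 and bedtools, with mm9 and mm10 as builds. For this table the build, annotation, strand setting and treatment of shared reads were not given in the sources used here, and the library kit, per the labels' protocols, does not mark strand, so antisense partners cannot be told apart.

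Transcripts were named with GENCODE M21, which matched 95.7% of them, and coordinates are from GRCm38. Each gene took the values of its transcript with the highest mean RPKM. Genes with at least 1 RPKM in at least 1 library were compared as log2((Δ/Δ + 0.5) / (C/C + 0.5)) and called at 1 or -1, in Python 3.11.15 with numpy 2.4.6, pandas 2.3.3 and scipy 1.17.1. This scale understates differences of low genes, and plain ratios leave out the added 0.5. Depth came from the steps of low values of transcripts of 100 to 800 bases, of which 95.7% in Δ/Δ and 96.5% in C/C were whole reads to within 0.1; simulated data served to check the search. More of these transcripts had 2 reads than 1 read, so 2 reads were taken as 1 fragment in the exact 95% intervals for the ratio of 2 Poisson rates. At these depths 3 reads on 2 kilobases are 0.00776 RPKM in Δ/Δ and 0.00879 RPKM in C/C.

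The 38 members and all lists were chosen with earlier results of these data known. Every member is named, and of other lists up to 4 genes with the largest absolute log2 ratio; other genes are motif matches or are said to be chosen with their values known. A comparison of protein sequences was planned and not run, since protein sequences were not used here. There were 11 planned kinds of alternative. Added after the data were seen were values of protein-coding transcripts, and marker sums without each list's most abundant gene.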

Additional observations from a re-analysis of the deposited data

How the results depend on the processing

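Members called higher in Δ/Δ numbered 16 with the settings of the report and 15 to 18 under other pseudocounts, filters, scalings and transcript choices. Under those settings the share of all compared genes called higher ran from 2.374% with no filter to 7.335% with 0.1 RPKM added. The median log2 ratio of the members, 0.94 in the report, was 0.952 with 0.1 RPKM added and 0.93 with 1 RPKM added. It was 0.862 with no filter and 0.958 with a filter of 5 RPKM. Centring on the median of all measured genes, a shift of -0.09, gave 1.036, and scaling to a common sum that leaves out the 20 most abundant genes gave 1.024. The sum of all listed transcripts gave 0.903, the median of the measured transcripts 0.962, and the protein-coding transcript of highest mean, an alternative chosen after seeing the data, 0.957. At 4-fold 3 members were higher, and at 1.5-fold 21 were higher and 1, Cnpy4, was lower. Of all measured genes 1.75% were higher at 4-fold, and at 1.5-fold 12.6% were higher and 16.7% lower. Calls moved at the limit of the rule. Tmx3 was lost with 1 RPKM added and P4hb with the sum or the median of transcripts. Erp44 and Uggt1 were gained by either scaling and by the sum, Erp44 also by the coding transcript, and Pdia5 with no filter. Of 423 single-member values none reversed a call, and 75 moved beyond their counting interval. Some of these came from centring and scaling, which raise the log2 ratio of every member. The rest came from the sum of transcripts, their median or the choice of the coding transcript. The sign of the log2 ratio changed for Dnajc1 and Tmx4 with the sum of transcripts. It changed for Dnajc1, Sec63 and Tmx4 with their median, and for Sec63 with the coding transcript. No paired analysis was possible because each genotype had 1 library, and for the same reason no replicate could be left out. The depth limits Uggt2, Fkbp7 and Fkbp14, whose intervals hold 1.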

Other observations

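Genes outside the members with a matching promoter, all chosen after their values were seen, are given here as values. Of those with the ER stress response element, Hnrnpa3, which encodes an RNA-binding protein, measured 122 RPKM in Δ/Δ and 93.2 RPKM in C/C. Syvn1, the ER ubiquitin ligase HRD1, measured 54.3 RPKM in Δ/Δ and 60.3 RPKM in C/C. Pan2, of the deadenylase complex, measured 7.82 RPKM in Δ/Δ and 13.7 RPKM in C/C. Xlr3b, a paralogue of Xlr3a, measured 1.34 RPKM in Δ/Δ and 1.48 RPKM in C/C, and reads of such close copies can be placed on either. Adcy3, an adenylate cyclase, measured 4.31 RPKM in Δ/Δ and 3.37 RPKM in C/C. None of these 5 passed the rule of size.

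Of 7 measured genes outside the members with the second form of the element, 0 were higher and 1 was lower, Lgalsl, with 0.139 RPKM in Δ/Δ and 1.65 RPKM in C/C. Nucb1, a calcium-binding protein of the Golgi, measured 83.0 RPKM in Δ/Δ and 42.1 RPKM in C/C, a log2 ratio of 0.97 just short of the rule. Herpud1, of ER-associated degradation, measured 225 RPKM in Δ/Δ and 226 RPKM in C/C. The core of the unfolded protein response element was found in 308 measured genes outside the members, of which 23 were higher and 10 lower, with a median log2 ratio of -0.01.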
